A study of Drosophila melanogaster and Drosophila simulans with 11 samples.

Results

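The *roX* mutant ChIP-seq profiles of MSL1 and MOF were compared along the genome of *Drosophila melanogaster* males. These 2 libraries are 2 of the 11 samples of the study and share their input. The deposited values are log2 ratios of ChIP to input at every 10th base pair, and only positions with a value in both libraries were used. A 1 kb bin was kept when at least 25 of its 100 possible positions were shared, and its value was the mean over the shared positions. In all, 64244 of 129019 bins (49.8%) were kept.

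Both libraries came from salivary glands of 3rd instar larvae grown at 25°C, with 125 glands per sample. The *roX* mutant males carried roX1[ex6] and the deficiency Df(1)roX2[52] on a y w chromosome, beside a Y. The same chromosome also held the transgene P[w+ 4Δ4.3]. Wild type values of MSL2 and MOF, used only beside the main comparison, are from Oregon R glands with an input of their own. Salivary gland chromosomes are polytene, and much of their heterochromatin is under-replicated. Each antibody and genotype has 1 library. The spread between replicates is therefore unknown, and all values are descriptions of these libraries with no test between them. The read depth behind a ratio is also unknown.

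The MSL-complex binds the single male X-chromosome and raises the expression of its genes. MSL1 is the scaffold of the complex and, together with the RING finger protein MSL2, forms the core that recognises the high affinity sites on X. MOF is the histone acetyltransferase of the complex and acetylates lysine 16 of histone H4. MLE is an RNA helicase that acts on the *roX* RNAs, and MSL3 is a chromodomain protein. MOF is also a subunit of the NSL complex, which sits at promoters of active genes on all chromosomes.

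The genome was divided into X, chromosome 4, the autosomal arms (2L and 2R, 3L and 3R), the last 2 Mb before the centromere of these arms and of X, and the heterochromatic scaffolds of release 5 (2LHet, 2RHet, 3LHet, 3RHet and XHet, called Het scaffolds). The bins kept numbered 978 of 20422 on X (4.79%), 81 of 2001 at the centromere end of X, and 1004 of 1286 on chromosome 4 (78.1%). They numbered 56475 of 88565 on the autosomal arms (63.8%), 4699 of 8000 at the autosomal centromere ends (58.7%) and 1007 of 8745 on the Het scaffolds (11.5%). X was thus covered least, and the few bins kept there are not an even sample of it. To put the antibodies on one scale, the median of the autosomal arms without the centromere ends was set to 0 in each library and in the difference, MSL1 minus MOF. These medians were −0.06 for MSL1, −0.03 for MOF and −0.02 for the difference, so that centring moved the values little. All log2 ratios below are centred in this way unless they are called deposited. If each ratio was formed with the same input value, the input cancels in the difference.

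MSL1 was enriched far above MOF on X. The median MSL1 log2 ratio of X bins was 1.39 (quartiles 0.79 and 2.20), and the median MOF log2 ratio was 0.31 (quartiles 0.09 and 0.59). The median difference was 1.16 (quartiles 0.68 and 1.65), and MSL1 was above MOF in 962 of 978 bins (98.4%). The centromere end of X resembled the rest of X, with 1.24 for MSL1, 0.36 for MOF and 1.04 for the difference. On both stretches the upper quartile of MOF lay below the lower quartile of MSL1.

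On chromosome 4 the medians lay close to those of the autosomal arms. MSL1 was 0.04 (quartiles −0.13 and 0.27), MOF was 0.04 (quartiles −0.12 and 0.19) and the difference was 0.04 (quartiles −0.17 and 0.32). At the autosomal centromere ends both proteins were raised to a like degree, with 0.24 for MSL1, 0.22 for MOF and a difference of 0.03 (quartiles −0.16 and 0.23). The Het scaffolds were high in both libraries, with 0.81 for MSL1 (quartiles 0.57 and 1.28) and 0.60 for MOF (quartiles 0.43 and 0.79). The difference there was 0.27 (quartiles −0.01 and 0.71). At the shared positions the highest median MOF was thus on the Het scaffolds and the highest median MSL1 on X. Over the positions of MSL1 alone the latter order turned, with 0.78 on the Het scaffolds (1135 bins) and 0.62 on X (3264 bins).

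**Figure D1:**
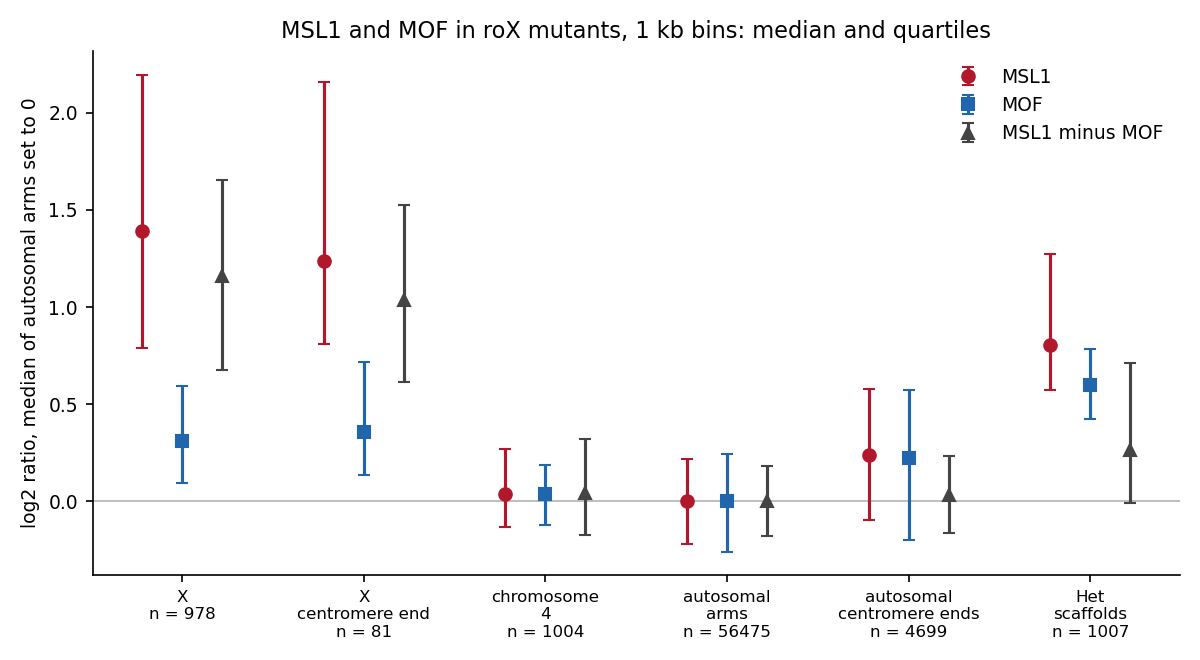
Centred log2 ratios of *roX* mutant MSL1 (circles), MOF (squares) and MSL1 minus MOF (triangles) in 1 kb bins by part of the genome, with n bins below each part. Points are medians and bars run from the lower to the upper quartile of bins of 1 library per antibody. The medians of MSL1 and MOF are 1.39 and 0.31 on X and 0.81 and 0.60 on the Het scaffolds, and the quartile bars of both do not overlap on X.

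A bin in which MSL1 exceeded MOF by at least 1 on the log2 scale, which is 2-fold, was called MSL1 excess. Over the whole genome 1123 bins (1.75%) were called. On X 576 bins (58.9%) were called, and at its centromere end 43 bins (53.1%). The Het scaffolds had 159 such bins (15.8%) and chromosome 4 had 90 (8.96%), while the autosomal centromere ends had 51 (1.09%) and the autosomal arms 204 (0.361%). The share on the autosomal arms was below that of the whole genome, and on X, chromosome 4 and the Het scaffolds it was above. At the autosomal centromere ends it was below over 2 Mb but above, at 2.32%, when the ends were taken as 1 Mb, and on 3R alone it was 2.01% over 2 Mb. MOF excess, the same call in the other direction, was found in 4 bins (0.00623%), and all of them lay on the autosomal arms. These were single bins at 14891000-14891999 on 2R, 654000-654999 and 20058000-20058999 on 3L and 11875000-11875999 on 3R, with MOF between 0.45 and 0.93 and between 26 and 48 shared positions each.

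The excess on X ran in 139 stretches with a median of 4 called bins and at most 18. On the autosomal arms there were 52 stretches with a median of 2 called bins, on the Het scaffolds 42 with a median of 3, and on chromosome 4 there were 14 with a median of 3. Stretches here are called bins joined over a gap of 1 bin.

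In the bins kept, the excess on X was present in every 1 Mb window along the chromosome. These windows held between 18 and 96 bins each, against 116 to 900 in windows of the autosomal arms. The difference by window was not computed over each library's own positions. In 20 windows of 1 Mb the median difference ran from 0.77 at 3 to 4 Mb to 1.63 at 12 to 13 Mb. The median MSL1 of these windows ran from 1.05 to 2.23 and the median MOF from 0.16 to 0.48. In 90 windows of the autosomal arms the difference ran from −0.32 to 0.25, so that no autosomal window reached the lowest window on X. MOF of the autosomal windows ran from −0.44 to 0.49, a range that holds all X windows, whereas MSL1 of the autosomal windows ran from −0.32 to 0.27 and did not reach X. The X windows thus lay outside the autosomal range in MSL1 and in the difference, and inside it in MOF, at its upper end.

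**Figure D2:**
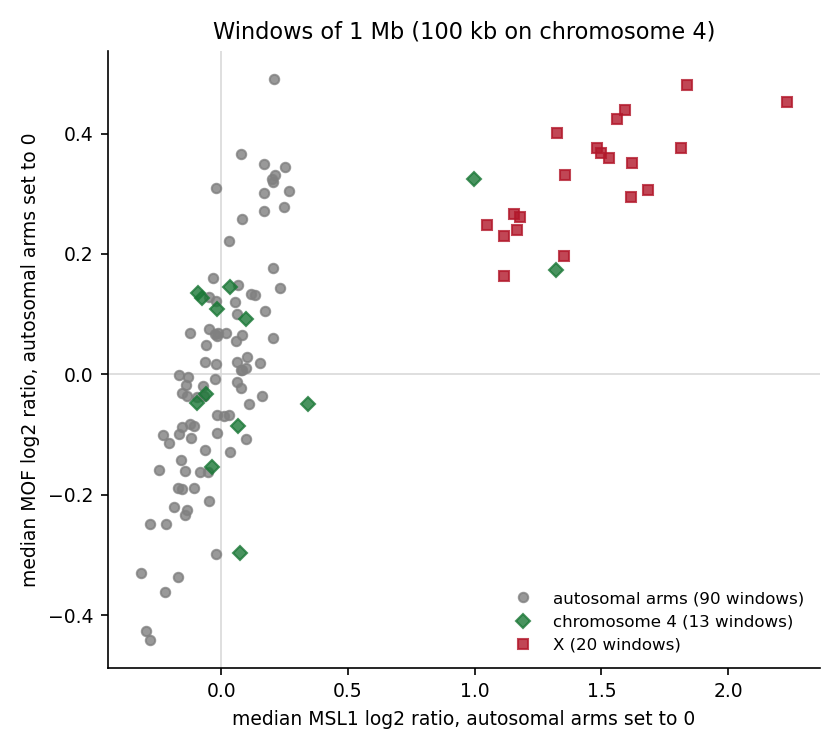
Median centred log2 ratio of MOF against that of MSL1 in windows of 1 Mb on the autosomal arms (grey circles) and X (red squares) and of 100 kb on chromosome 4 (green diamonds), each with at least 10 bins. The X windows have MSL1 medians from 1.05 to 2.23 and MOF medians from 0.16 to 0.48, and 2 windows of chromosome 4 lie beside them.

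The difference on X depended on which positions carried a value. Of the MSL1 positions on X 32.5% also had a MOF value, and of the MOF positions 43.7% had an MSL1 value, against 85.4% and 50.6% on the autosomal arms. Deposited MSL1 on X had a median of 1.28 at positions shared with MOF and 0.54 at those without a MOF value. Deposited MOF on X had a median of 0.30 at shared positions and 0.21 at those without MSL1. The shared positions of X were therefore richer in MSL1 than the rest. Among X bins with 25 to 49, 50 to 74 and 75 to 100 shared positions the median difference was 0.76 (478 bins), 1.23 (239 bins) and 1.81 (261 bins). When each library was taken over its own positions, the median was 0.62 for MSL1 in 3264 bins and 0.23 for MOF in 2634 bins, and their difference on X was 0.39 in place of 1.16. At the centromere end of X it was 0.44 in place of 1.04. MSL1 remained above MOF on X in both ways of counting, and the size of the excess on X is that of the shared positions only. Only uniquely mapped reads were used and smoothed windows with few values were discarded by the authors, but the rule that left a single position without a value was not found in the text used here. Its part in the result was not tested.

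The level of MOF was next compared between parts of the genome in bins of equal MSL1 level, in steps of 0.5. Grouping by one library favours bins where the value of that library happens to be high, so the reverse grouping is given as well. In bins with MSL1 from 1.5 to 2.0 the median MOF was 0.37 on X (146 bins), 0.34 on chromosome 4 (25 bins) and 0.31 on the autosomal arms (55 bins). It was 0.72 on the Het scaffolds (87 bins) and 0.91 at the autosomal centromere ends (30 bins). The lower quartiles of the last of these, 0.61 and 0.75, lay above the upper quartiles of X, chromosome 4 and the arms, 0.50, 0.42 and 0.44. At this step the bins of the Het scaffolds and autosomal centromere ends thus had a higher MOF ratio than those of X, chromosome 4 and the arms. Because both libraries share an input, a low input value raises both ratios. Its part in this grouping and in the reverse one was not tested.

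At MSL1 from 2.0 to 2.5 median MOF was 0.55 on X (130 bins), 0.50 on the arms (34 bins), 0.76 on chromosome 4 (13 bins) and 0.92 on the Het scaffolds (67 bins). At MSL1 from 3.0 to 3.5 it was 1.21 on X (56 bins) and 1.46 on the Het scaffolds (15 bins). The MOF ratio was thus higher in these higher MSL1 steps, and the part of the shared input in this was not tested. On the autosomal arms MOF did not rise evenly. Its median was 0.41 at MSL1 from 0.5 to 1.0 (2745 bins), 0.11 at 1.0 to 1.5 (84 bins) and 0.31 at 1.5 to 2.0. On X it rose at each step, from 0.11 at MSL1 of 0.5 to 1.0 (220 bins) to 0.22 at 1.0 to 1.5 (190 bins) and 1.61 at 3.5 to 4.0 (34 bins).

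In the reverse grouping, bins with MOF from 0.5 to 1.0 had a median MSL1 of 2.28 on X (207 bins), 2.13 on chromosome 4 (25 bins) and 0.35 on the autosomal arms (3755 bins). The value was 0.65 at the autosomal centromere ends (1296 bins) and 0.90 on the Het scaffolds (542 bins). Among the bins kept, one of raised MOF was thus one of very high MSL1 on X and chromosome 4, and of slightly raised MSL1 on the arms. Only 43.7% of the MOF positions on X had an MSL1 value, and raised MOF at the other positions is not covered.

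**Figure D3:**
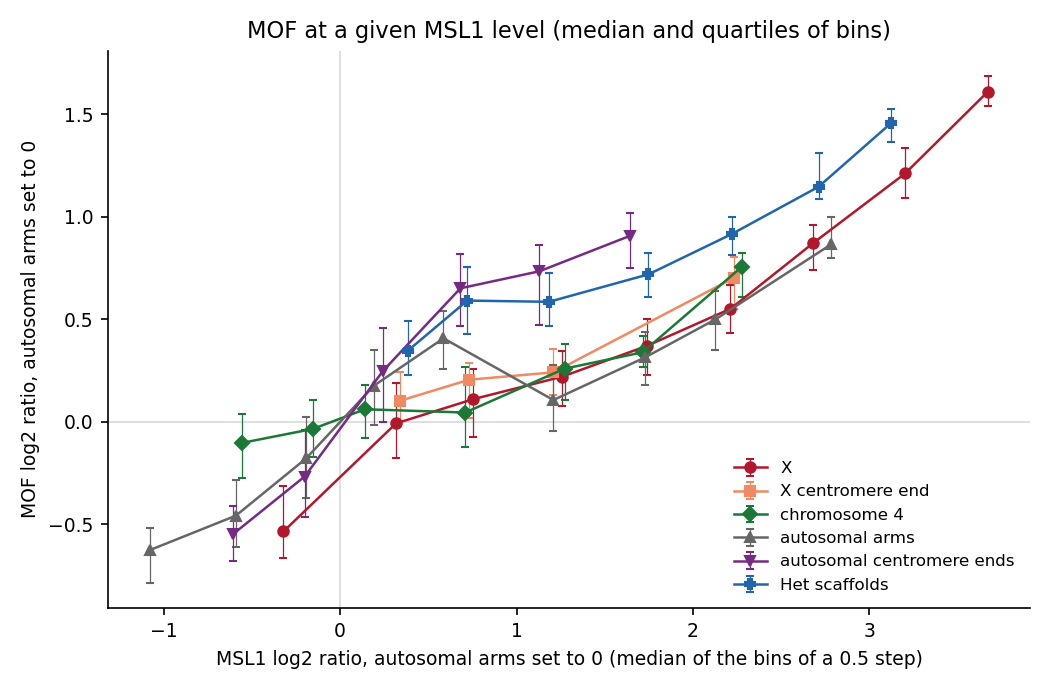
Median centred log2 ratio of MOF in bins grouped by steps of 0.5 in the centred log2 ratio of MSL1, by part of the genome. Bars run between the quartiles of bins and steps with under 10 bins are not drawn. At MSL1 from 1.5 to 2.0 MOF is 0.37 on X, 0.34 on chromosome 4 and 0.31 on the arms, against 0.72 on the Het scaffolds and 0.91 at the autosomal centromere ends.

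On X the high affinity sites serve as entry sites of the MSL-complex. Sites were defined here in the wild type MSL2 library, which shares neither antibody nor input with the compared profiles. They are the bins of the highest 1.5% of wild type MSL2, joined over gaps of 1 bin, and their centre is the highest bin. The published high affinity sites were not used, so the sites defined here may differ from them. X held 335 such sites, of which 131 had a kept bin at their centre. Among X bins outside the centromere end, those at a centre had a median MSL1 of 2.08 (quartiles 1.36 and 2.93) and a median MOF of 0.57 (quartiles 0.27 and 0.98) in 122 bins. Both profiles fell with distance up to 10 to 19 kb. At 3 to 4 kb MSL1 was 1.26 and MOF 0.26 (194 bins), and at 10 to 19 kb MSL1 was 0.61 and MOF 0.07 (52 bins). At 20 kb or more they were no lower, with MSL1 at 0.65 and MOF at 0.21 (68 bins).

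The difference fell over all distances, from 1.60 at the centre to 1.02 at 3 to 4 kb, 0.61 at 10 to 19 kb and 0.49 at 20 kb or more. The share of bins with MSL1 excess fell from 78.7% at the centre to 52.6% at 3 to 4 kb and 19.1% at 20 kb or more. Bins remote from the sites thus still had a higher centred ratio of MSL1 than of MOF. Bins far from sites were few and kept only where both libraries had values.

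**Figure D4:**
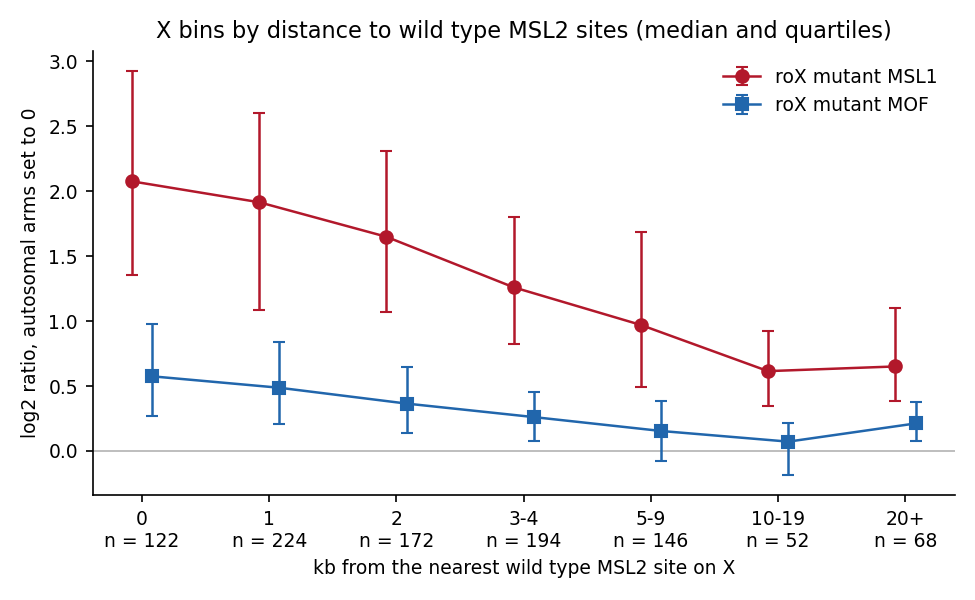
Centred log2 ratios of *roX* mutant MSL1 (circles) and MOF (squares) in X bins by distance in kb to the nearest wild type MSL2 site, with n bins below each distance class. Points are medians and bars run between quartiles. MSL1 falls from 2.08 at the sites to 0.61 at 10 to 19 kb and MOF from 0.57 to 0.07.

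On X, the stretch with the highest mean difference lay at chrX:7181000-7185999 (release 5). MSL1 in its 5 bins was 3.73, 3.98, 3.79, 2.87 and 1.58. MOF in the same bins was 1.54, 1.64, 1.58, 0.85 and 0.17. Both fell towards the right, MOF to near the autosomal level in the last bin while MSL1 was still above 1.5. The stretches at chrX:12604000-12609999 (MSL1 2.79, MOF 0.77) and chrX:1265000-1269999 (MSL1 2.91, MOF 0.99) followed. Wild type MOF in these 3 stretches had means of 1.73, 2.10 and 1.48, higher than the mean of *roX* mutant MOF in each. Single bins went the other way, with wild type MOF at 1.095 against 1.267 at 1268000-1268999 and 0.152 against 0.168 at 7185000-7185999. Ranking by the difference favours stretches of low *roX* mutant MOF, and the wild type ratios have another input.

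Of the bins kept, 244 (0.38%) were at least 2-fold above the autosomal median in both libraries, of which 104 lay on X. Because the libraries share an input, a low input value raises both ratios, and this count is given without a reading. On X the longest of the first 3 such stretches was chrX:16846000-16857999, with 12 bins of MSL1 from 2.94 to 4.34 and MOF from 1.07 to 2.12. The others were chrX:4598000-4599999 (MSL1 3.66, MOF 1.75) and chrX:1587000-1588999 (MSL1 3.55, MOF 1.60). Even there the difference was between 1.90 and 1.99 as a mean. At the centromere end of X the first stretch of excess was chrX:20917000-20923999, with a mean MSL1 of 2.35 and MOF of 0.71, followed by chrX:21932000-21942999 (2.50 and 0.88) and chrX:21863000-21873999 (2.19 and 0.60). The stretches high in both at that end lay at chrX:20921000-20922999, chrX:21936000-21939999 and chrX:21188000-21189999, with MSL1 between 3.01 and 3.19 and MOF between 1.11 and 1.29.

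Chromosome 4 is the small dot chromosome, largely heterochromatic in character yet rich in expressed genes. Its 90 bins of MSL1 excess fell into 3 groups more than 100 kb apart, and no bin outside them was called. The first group, at chr4:60000-148999, had 33 called bins among 75 kept bins, with a median MSL1 of 0.72 and MOF of −0.16. In the middle group, at chr4:328000-378999, all 40 kept bins were called, with a median MSL1 of 1.71 and MOF of 0.34. The rightmost, at chr4:1214000-1254999, had 17 called bins among 34, with a median MSL1 of 1.36 and MOF of 0.39. The other 855 bins of chromosome 4 had medians of 0.01 for MSL1, 0.03 for MOF and −0.03 for the difference. Median MOF was thus above the arms in the 2 groups to the right and below them in the leftmost, and the highest values of both proteins were in the rightmost.

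The stretch with the highest mean difference was chr4:1223000-1234999. MSL1 in its 12 bins ran from 1.84 to 4.25 with a mean of 3.58. MOF ran from 0.68 to 2.18 with a mean of 1.70. Wild type MOF ran from −1.34 to −0.75 in the 9 bins with a value, and wild type MSL2 had a mean of −0.06 in 12 bins, so that neither protein was enriched there in wild type. The next stretches were chr4:328000-340999 (13 bins, MSL1 2.11, MOF 0.59) and chr4:129000-148999 (19 called bins, MSL1 1.94, MOF 0.45, wild type MOF −0.77 in 11 bins). Stretches high in both libraries were chr4:1223000-1233999 and chr4:330000-333999, the latter with a mean MSL1 of 2.96 and MOF of 1.14. These levels of MSL1 on chromosome 4 lay within the range of X, up to 4.34, and MOF at its highest there, 2.18, was at the highest of X, 2.14.

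Between the groups the sign of the difference turned along the chromosome. In steps of 50 kb along it the median difference was 0.20 at 150 to 200 kb and 0.24 at 200 to 250 kb. At 750 to 800 kb it was −0.30, at 800 to 850 kb −0.21 and at 1000 to 1050 kb −0.14. In these last steps MSL1 was −0.14, −0.11 and −0.01 and MOF was 0.19, 0.09 and 0.12. MOF was therefore slightly above MSL1 in these last steps. The median difference was below 0 in each step from 600 to 1150 kb. From 400 to 600 kb its sign was mixed, with −0.01, 0.21, −0.07 and 0.08 in order.

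On the autosomal arms the strongest stretch of MSL1 excess was chr3R:9858000-9861999. MSL1 in its 4 bins was 2.07, 3.18, 3.29 and 1.99 and MOF was 0.53, 1.37, 1.24 and 0.41. Wild type MOF in the same bins was −0.27, −0.57, −0.64 and −0.03. Both proteins thus peaked in the middle bins, where wild type MOF was lowest. The next were chr2R:2810000-2826999, with 17 bins, a mean MSL1 of 2.21 and MOF of 0.48, and chr3L:17517000-17521999, with MSL1 from 1.29 to 2.08 and MOF from −0.06 to 0.36. The first stretch high in both lay near the strongest, at chr3R:9791000-9795999, with MSL1 from 2.85 to 3.26 and MOF from 1.21 to 1.39 in 5 bins and a mean wild type MOF of 0.03. The other was the middle of the strongest stretch, chr3R:9859000-9860999.

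The centromere ends of the arms differed from each other. Over 2 Mb the end of 2R had the highest median MSL1, 0.52, with MOF at 0.47 and a difference of 0.03. The end of 2L had 0.29, 0.26 and 0.03. The end of 3L had the highest median MOF, 0.58, with MSL1 at 0.44 and a difference of −0.14. On 3R both were below the arms, with MSL1 at −0.17, MOF at −0.31 and a difference of 0.13. On 3L MOF was thus above MSL1, and the difference was above 0 in 263 of 850 bins.

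In steps of 250 kb both proteins were higher in the last step than at 1.75 to 2 Mb on 2L, 2R and 3L, though not by an even rise. On 2L, MSL1 was 0.02 and MOF −0.04 at 1.75 to 2 Mb from the end, and 0.79 and 0.73 in the last 250 kb (125 bins). On 2R, MSL1 was −0.10 and MOF −0.13 at 1.75 to 2 Mb, and 0.84 and 0.62 in the last step (105 bins). On 3L, MSL1 was 0.22 and MOF 0.25 at 1.75 to 2 Mb, and 0.73 and 0.77 in the last step (14 bins), where MSL1 became 1.16 with at least 50 shared positions per bin. MOF was highest before the last step on 2L, 2R and 3L. It was 0.77 at 250 to 500 kb on 2L and 0.90 at 1 to 1.25 Mb on 3L. On 2R it was 0.76 at 750 to 1000 kb and 0.40 at 500 to 750 kb. MSL1 was also highest before the last step on 3L, with 0.76 at 500 to 750 kb. The difference in the last step was 0.09 on 2L, 0.22 on 2R and 0.01 on 3L, and the last of these became 0.22 with at least 50 shared positions. Wild type MOF stayed below the arms on 2L, with −0.52 at 1.75 to 2 Mb and −0.27 in the last step. It was 0.13 in the last step of 2R and, on 3L, 0.41 at 750 to 1000 kb and −0.10 in the last step, the latter from 6 bins.

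The difference was not even along these ends. On 3L it was lowest at 1.25 to 1.5 Mb, with MSL1 at 0.44, MOF at 0.69 and a difference of −0.25 (133 bins). On 2L MSL1 stood above MOF at 1.5 to 1.75 Mb, with 0.24 and −0.19 and a difference of 0.35 (146 bins). On 3R the last step had MSL1 at 0.07, MOF at −0.20 and a difference of 0.29 (191 bins). Beyond the 2 Mb, 3R at 2.5 to 2.75 Mb had MOF at 0.58 and MSL1 at 0.07, a difference of −0.51 in 77 bins, and wild type MOF was 0.38 there. On 2R at 2.75 to 3 Mb the difference was 0.43 (213 bins), a step that holds the stretch of excess at 2810000 named above.

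**Figure D5:**
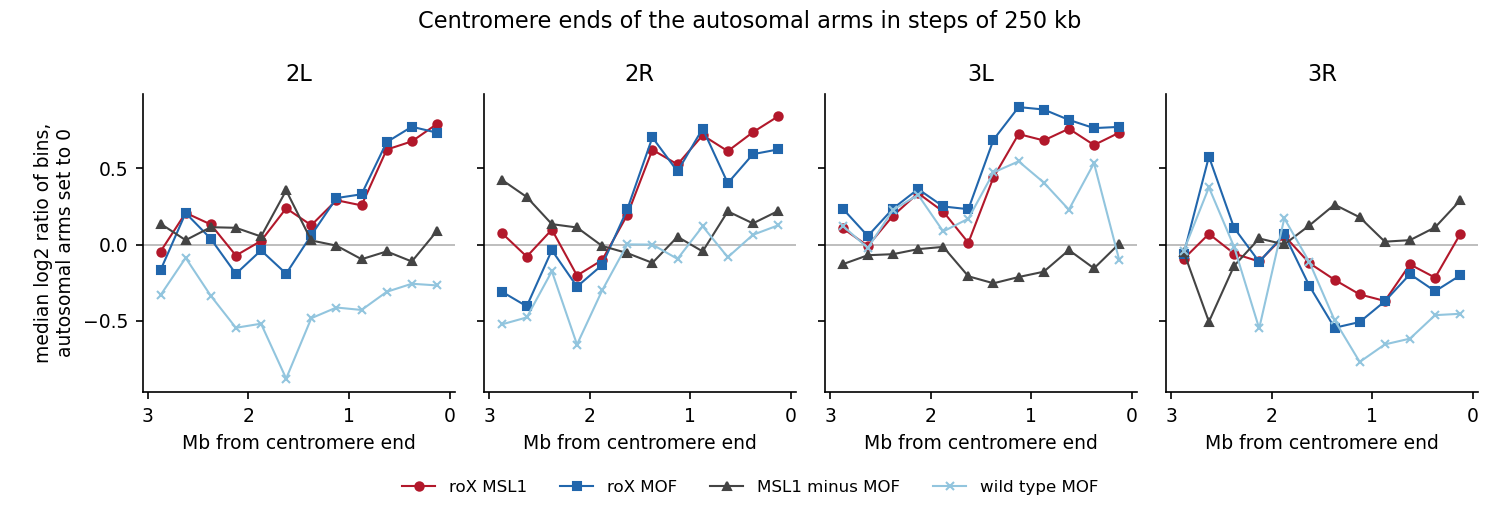
Median centred log2 ratios of *roX* mutant MSL1 (circles), *roX* mutant MOF (squares), MSL1 minus MOF (triangles) and wild type MOF (crosses) in steps of 250 kb over the 3 Mb at the centromere end of the 4 autosomal arms, with the centromere end at the right of each panel. In the last step MSL1 and MOF are 0.79 and 0.73 on 2L, 0.84 and 0.62 for 2R, 0.73 and 0.77 for 3L, and 0.07 and −0.20 for 3R.

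At the autosomal centromere ends MSL1 was at least 2-fold above the arms in 214 of 4699 bins (4.55%) and MOF in 123 (2.62%), against 2.41% and 0.579% of all bins kept. The end of 2L had 62 and 21 of these among 1210 bins, that of 2R 78 and 16 among 1246, that of 3L 51 and 86 among 850, and that of 3R 23 and 0 among 1393. MOF thus had more such bins than MSL1 on 3L and fewer on the other ends. The first stretch of excess, chr3R:481000-482999, had 2 bins with MSL1 at 1.09 and 1.44 and MOF at −0.05 and −0.20. The next stretches lay on 2L, at chr2L:22738000-22745999 (8 bins, MSL1 2.37, MOF 1.11) and chr2L:22818000-22821999 (4 bins, MSL1 2.53, MOF 1.28). The stretches high in both overlapped them, at chr2L:22817000-22820999 and chr2L:22740000-22746999, and chr3L:23709000-23710999 came next (MSL1 1.65, MOF 1.09). Wild type MOF was −0.37 and −0.68 in the stretches of excess on 2L, in 3 and 2 bins with a value.

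The Het scaffolds also differed from each other. The median difference was 0.12 on 2LHet (41 bins), 0.35 on 2RHet (430 bins), 0.06 on 3LHet (346 bins), 0.48 on 3RHet (165 bins) and 0.85 on XHet (25 bins). MSL1 was 0.87, 0.90, 0.71, 0.84 and 1.30 in this order, and MOF was 0.72, 0.55, 0.68, 0.51 and 0.48. The scaffolds of 2R, 3R and X thus had the higher MSL1 relative to MOF, and those of 2L and 3L were nearly even. MSL1 excess was called in 0 bins of 2LHet, 70 of 2RHet (16.3%), 36 of 3LHet (10.4%), 45 of 3RHet (27.3%) and 8 of XHet (32.0%).

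The strongest stretch of the Het scaffolds was at 76000-81999 of XHet. MSL1 in its 6 bins was 1.97, 3.66, 4.18, 3.99, 3.38 and 2.91. MOF in the same bins was 0.77, 1.75, 2.33, 1.95, 1.41 and 1.31. This was also the highest MOF of all bins kept. In contrast to the autosomal stretches, wild type MOF was high there, with a mean of 2.18, as on X. The others were at 1597000-1599999 of 2RHet (3 bins, MSL1 3.14, MOF 1.41) and 1820000-1823999 of 3RHet (4 bins, MSL1 2.91, MOF 1.31, wild type MOF −0.29). Stretches high in both lay at 77000-81999 of XHet, 595000-600999 of 3LHet (6 bins, MSL1 3.34, MOF 1.71, wild type MOF −0.23) and 467000-470999 of 2RHet (4 bins, MSL1 3.26, MOF 1.54, wild type MOF −0.03).

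The bins of MSL1 excess were last looked up in the libraries that did not choose them. On X, wild type MOF had a median of 2.10 (575 of 576 bins) and wild type MSL2 of 0.85 (574 bins), against 0.49 for *roX* mutant MOF, which the call itself had used. On chromosome 4 wild type MOF was −0.80 (38 of 90 bins) and wild type MSL2 −0.11 (89 bins), against 0.34 for *roX* mutant MOF. All bins kept had similar wild type levels, with 1.81 for MOF and 0.68 for MSL2 on X and −0.57 for MOF and −0.14 for MSL2 on chromosome 4. The wild type levels thus had the direction of those of all bins kept, high on X and below the autosomal median on chromosome 4. Wild type MOF was somewhat higher in the excess bins on X and somewhat lower in those on chromosome 4. Levels of the whole chromosomes were not computed, and few bins of X were kept. On the Het scaffolds wild type MOF was −0.19 (78 of 159 bins) and *roX* mutant MOF 0.90. On the autosomal arms wild type MOF was −0.40 (189 of 204 bins) and *roX* mutant MOF 0.15, and at the autosomal centromere ends these were −0.59 (32 of 51 bins) and 0.17. Wild type and *roX* mutant ratios have different inputs, and the share of bins with a wild type MOF value was lower on chromosome 4 and the Het scaffolds than on X.

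*roX* mutant MSL2, the partner of MSL1 in the core, was looked up in the same bins. It was slightly above the level of all bins kept on X and chromosome 4. On the arms, the autosomal centromere ends and the Het scaffolds it was slightly below that level. Its median was 0.31 on X (486 bins), −0.13 on chromosome 4 (84 bins), −0.15 on the autosomal arms (200 bins), −0.03 at the autosomal centromere ends (50 bins) and 0.20 on the Het scaffolds (146 bins). Over all bins kept it was 0.23 on X, −0.17 on chromosome 4, 0.00 on the arms, 0.08 at the centromere ends and 0.24 on the Het scaffolds. In bins at least 2-fold above the arms in both MSL1 and MOF it was 0.57 on X (102 bins) and 0.17 on chromosome 4 (15 bins). There it was 0.18 on the arms (8 bins), 0.35 at the autosomal centromere ends (35 bins) and 0.32 on the Het scaffolds (68 bins). Each of these was above the level of all bins kept, and *roX* mutant MSL2 shares the input of MSL1 and MOF. How well each antibody enriches its target is not known from these files, and the levels of the 3 proteins on these scales do not give their stoichiometry.

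Where MOF stood above MSL1 by at least 0.5, a weaker limit than 2-fold, 1947 bins (3.03% of all bins kept) were found. Of the bins of the autosomal arms 1800 (3.19%) passed this limit, of their centromere ends 107 (2.28%), of chromosome 4 34 (3.39%), of the Het scaffolds 6 (0.596%) and of X 0. The same limit in the other direction, MSL1 above MOF by 0.5, was passed by 2138 bins (3.79%) of the arms. In all it was passed by 3911 bins (6.09%). The centring set the median difference of the arms to 0, so no balance between the proteins is read from these shares. The arms and chromosome 4 were near the share of the whole genome in MOF above MSL1. In the bins of the arms MOF had a median of 0.38 and MSL1 of −0.22, and wild type MOF was 0.14 (1679 bins). In those of the centromere ends MOF was 0.67 and MSL1 0.05, and wild type MOF was 0.33 (81 bins). In those of chromosome 4 MOF was 0.20 and MSL1 −0.37, and wild type MOF was −0.48 (18 bins). Wild type MOF was thus above its arm median in these bins of the arms and centromere ends, and below it in the bins of MSL1 excess there.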

How the data were processed

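Salivary gland chromatin was immunoprecipitated and sequenced on AB SOLiD by the authors, who aligned uniquely mapped reads to release 5 with Bioscope 1.2.1. The deposited values are log2 ratios of ChIP over input, and the scaling behind the ratio is not given in the sources used here. In the deposited files a track line stands before each data line, and the fifth column, a log2 value with other text lines between, was read.

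Bins of 1 kb with at least 25 shared positions were averaged, centred on the autosomal arms and divided by part of the genome. The centromere end is the right end of X, 2L and 3L and the left end of 2R and 3R. Named stretches are the first 3 runs of at least 2 bins in each part by mean difference, and the first 3 with the highest lower ratio of both libraries. No gene was named from a position, since no release 5 annotation was used. Unplaced scaffolds and the *D. simulans* libraries were left out. The parts, limits and stretches were chosen with earlier results of these data known. With 1 library per antibody no test was made. Alternatives were a minimum of 10 or 50 shared positions, medians within bins, means over bins, bins of 500 or 5000 bp, other centring and scaling, centromere ends of 1 or 3 Mb, excess of 0.5 or 1.5, each library's own positions and other site definitions. A recomputed value was counted as moved when it changed by over 1.5 times and, for log2 values, by at least 0.05. The scripts were tested on simulated data. Python 3.11.15, numpy 2.4.6, pandas 2.3.3 and matplotlib 3.10.9 were used.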

Additional observations from a re-analysis of the deposited data

Results flagged for a closer look

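A pair of signals lay in unplaced scaffolds, which the comparison did not use. On scaffold U, 6 neighbouring bins had a mean deposited log2 ratio of 3.09 for MSL1 from *roX* mutants. MOF from *roX* mutants was 1.42 there, against 0.27 for MSL2 of the same genotype (5 bins), −0.07 for wild type MOF (3 bins) and 0.18 for wild type MSL2 (5 bins). On scaffold Uextra, 7 bins had a median deposited log2 ratio of 6.62 for MOF and 5.71 for MSL1 from *roX* mutants, and of 5.48 for wild type MOF and 3.29 for wild type MSL2 (5 bins), while MSL2 from *roX* mutants ran from 5.28 to 7.54. The Uextra bins named were thus high in every library of both genotypes where a value was present, and MOF stood above MSL1 in them. U had 76 paired bins and Uextra 15, and the others are not described here. The bins named were singled out for a closer look, so their levels do not describe the scaffolds.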

How the results depend on the processing

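Of 273 values recomputed under 17 alternatives, 35 moved and 0 turned their sign from a main value of at least 0.1. Shares of bins could not be counted as turned. The main differences on chromosome 4 and at the autosomal centromere ends were below 0.1, so a turn of theirs would not have been counted. Recomputed, they ran from 0.01 to 0.15 on chromosome 4 and from 0.01 to 0.06 at the autosomal centromere ends. The excess of MSL1 over MOF on X depended most on the positions used. With at least 10 shared positions the median difference was 0.72 on X and 0.67 at its centromere end, the share of bins with MSL1 excess was 36.9% and 32.6%, and MOF excess on the arms was 0.0171%. Over each library's own positions the differences were 0.39 and 0.44. With at least 50 shared positions MSL1 excess was 0.705% on the arms and 1.64% at the autosomal centromere ends, and MOF excess on the arms was 0.0%. In the last 250 kb of 3L MSL1 then became 1.16 and the difference 0.22, MSL1 in the last 250 kb of 3R became 0.14, and *roX* mutant MSL2 in excess bins of chromosome 4 became −0.0736. With medians within bins MOF excess on the arms was 0.0372% and MOF of arm bins with MSL1 from 1.0 to 1.5 was 0.16. MOF excess on the arms was 0.0442% in bins of 500 bp, 0.0% in bins of 5000 bp and 0.0124% after scaling by interquartile range. At the autosomal centromere ends MSL1 excess was 0.577% in bins of 5000 bp and 2.32% with ends of 1 Mb. As a mean over bins the difference on chromosome 4 was 0.15.

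With an excess of 0.5 the shares of MSL1 excess were 80.2% at the centromere end of X, 17.4% on chromosome 4, 3.79% on the arms, 8.00% at the autosomal centromere ends and 34.2% on the Het scaffolds, and MOF excess on the arms was 3.19%. With an excess of 1.5 they were 33.1% on X, 28.4% at its centromere end, 3.29% on chromosome 4, 0.122% on the arms, 0.0426% at the autosomal centromere ends and 4.37% on the Het scaffolds, with 0.0% for MOF. The causes of these moves were not tested, apart from the stricter or looser limits themselves. No paired analysis was possible because each antibody and genotype has 1 library, and for the same reason no replicate could be left out. The reads behind each ratio are not known, so that counting error could not be estimated.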
